A study of Mus musculus with 9 samples.

Results

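The S100 calcium-binding proteins were followed in spinal cord RNA of B10.PL mice across 3 groups of 3 arrays. The groups were experimental autoimmune encephalomyelitis (EAE, in which immune cells attack myelin, a mouse model of multiple sclerosis) given 200 ng of calcitriol (replicates 6, 7 and 8), EAE given placebo (replicates 1, 5 and 10), and naive mice without EAE (replicates 2, 3 and 4). Cords of both EAE groups were taken 6 h after treatment, calcitriol being the hormonal form of vitamin D, and the labels name neither placebo nor time for the naive mice. For calcitriol replicate 6 the labels disagree, its title giving vitamin D2 as the parent compound and its description D3. Members were the probe sets whose annotated gene symbol is S100a1, S100a4, S100a6, S100a8, S100a9, S100a10, S100a13 or S100b. The 8 genes, of 8252 named by 1 symbol, had 14 of the 12488 probe sets on the array, and all 14 passed the filter on dim signals. A further 8 probe sets of 5 other S100 genes were on the array and were not members.

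S100 proteins are small proteins with EF-hands, the helix-loop-helix fold that binds calcium, and most of them work as dimers that change shape with calcium and then grip a partner protein. Inside cells they regulate the cytoskeleton, membranes and enzymes. Some are released from damaged or activated cells and act as alarm signals through the receptors Ager (RAGE) and Tlr4. S100a8 and S100a9 pair to form calprotectin, an abundant cytosolic protein of neutrophils and monocytes that also withholds zinc and manganese from microbes. S100b is in the central nervous system best known from astrocytes and is also made by Schwann cells and some oligodendrocytes.

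Of the 8 genes, 7 have a RefSeq promoter entry on GRCm38.p6, where S100a1, S100a4, S100a6, S100a8, S100a9 and S100a13 lie on chromosome 3 and S100b on chromosome 10. S100a8 and S100a9 are next to each other among protein-coding genes, and so are S100a1 and S100a13, whose promoter windows overlap by 204 bases on opposite strands. The windows of members that rose in EAE against naive are shown. Each runs 5′ to 3′ from 250 bases before to 50 bases after the annotated start, with capitals for matches to the motifs named below. S100a8 is chr3:90668821-90669120 (plus strand), S100a9 is chr3:90695672-90695971 (minus strand), S100a6 is chr3:90612644-90612943 (plus strand) and S100a4 is chr3:90603520-90603819 (plus strand). S100a10 is named only.
S100a8: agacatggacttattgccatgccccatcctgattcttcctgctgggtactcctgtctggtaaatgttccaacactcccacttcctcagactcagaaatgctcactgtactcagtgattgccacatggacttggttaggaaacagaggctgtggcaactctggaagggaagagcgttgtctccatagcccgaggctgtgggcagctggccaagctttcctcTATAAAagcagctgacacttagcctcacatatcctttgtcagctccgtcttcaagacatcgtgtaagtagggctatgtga
S100a9: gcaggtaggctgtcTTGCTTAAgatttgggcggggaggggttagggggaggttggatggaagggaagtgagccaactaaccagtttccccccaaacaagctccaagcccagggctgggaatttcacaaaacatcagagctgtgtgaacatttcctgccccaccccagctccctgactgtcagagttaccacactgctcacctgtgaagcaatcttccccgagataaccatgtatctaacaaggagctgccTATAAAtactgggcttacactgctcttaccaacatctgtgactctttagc
S100a6: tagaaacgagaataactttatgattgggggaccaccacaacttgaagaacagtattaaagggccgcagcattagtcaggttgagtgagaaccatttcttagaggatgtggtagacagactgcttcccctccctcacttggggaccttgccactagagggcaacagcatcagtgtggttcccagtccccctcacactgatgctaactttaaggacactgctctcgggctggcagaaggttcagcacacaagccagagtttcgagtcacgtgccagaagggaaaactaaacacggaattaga
S100a4: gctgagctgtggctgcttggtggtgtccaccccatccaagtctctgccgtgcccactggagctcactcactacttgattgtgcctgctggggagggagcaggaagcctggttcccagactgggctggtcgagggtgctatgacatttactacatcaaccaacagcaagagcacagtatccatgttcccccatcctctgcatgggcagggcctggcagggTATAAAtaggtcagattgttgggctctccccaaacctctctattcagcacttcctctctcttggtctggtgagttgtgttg
Both strands were searched for TATAAA (the TATA box), TTGCNNAA (a C/EBP site), the NF-kappa B consensus and the direct repeat bound by the vitamin D receptor. Over 32851 promoter windows of this length, 13.6%, 10.8%, 0.155% and 0.7% held them, in that order. For NF-kappa B only a fixed sequence of 10 bases, without variable positions, was searched. Other forms of its consensus were not searched, so their presence in these windows is not known. TATAAA was found from -30 to -25 in S100a8, from -31 to -26 in S100a4 and from 1 to 6 in S100a9, counted from the annotated start. The S100a9 window also held TTGCTTAA, a match to the C/EBP letters, from -236 to -229. No match overlapped another. The S100a6 window held none of these motifs in the forms searched, and neither did those of S100a1, S100a13 and S100b.

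Deposited values were linear signals per probe set. They were scaled to a common mean of 193 on each array and raised to a floor of 19.3 signal units, 10% of that mean. Signals of different probe sets have no common scale, so single probe sets were compared only with themselves across arrays. The sums of marker lists given below add different probe sets, so bright ones weigh most in them. Arrays of calcitriol-treated EAE correlated with each other at 0.899 to 0.938 (log2 signals across probe sets, genes not being independent replicates), those of placebo-treated EAE at 0.921 to 0.936 and naive arrays at 0.765 to 0.878. Naive replicates 2, 3 and 4 held 178, 65 and 171 values of exactly 0, and EAE arrays 19 to 121. The 5′ over 3′ signal of beta-actin, a gauge of RNA quality, was lower on every EAE array than on every naive array. On the log2 scale this contrast averaged -0.67 ± 0.16 for calcitriol-treated EAE, -0.80 ± 0.35 for placebo-treated EAE and -0.05 ± 0.19 for naive cord (SD, n = 3 each). The gap to naive was -0.75 with placebo and -0.62 with calcitriol, each with a two-sided exact permutation p of 0.1 (no smaller p is possible with 3 against 3) and 0.15 once adjusted by Benjamini-Hochberg for 3 comparisons. The gap of calcitriol to placebo was 0.13 (exact permutation p = 0.6, also after adjustment). Its part in the results below was not tested. In this bulk tissue, more cells of a type and more RNA per cell cannot be told apart.

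In cords with EAE 5 of the 8 S100 genes were higher than in naive cord, S100a8, S100a9, S100a6, S100a4 and S100a10, and no difference between calcitriol and placebo was detectable at 6 h. Against naive cord, 5 of 14 S100 probe sets rose and none fell in placebo-treated EAE (limma, Benjamini-Hochberg adjusted p under 0.05), where 0.936% of all 12177 probe sets tested passed in either direction, 0.887% rising and 0.0493% falling. In calcitriol-treated EAE, 5 of 14 rose against naive and none fell, beside 2% of all probe sets in either direction, 1.68% rising and 0.32% falling. These were the same 5 probe sets, in comparisons that share the naive arrays. At an unadjusted p under 0.05, 8 of 14 passed with placebo (9.33% of all) and 8 with calcitriol (11.9% of all). Placebo arrays lay wholly above naive in 8 of 14 (7.39% of all) and wholly below in 1 (7.13% of all), and calcitriol arrays wholly above in 6 (8.45% of all) and wholly below in 0 (7.69% of all). The median difference over the 14 probe sets was 0.72 log2 for placebo against naive (all probe sets -0.02), 0.38 log2 for calcitriol against naive (all -0.02) and -0.10 log2 for calcitriol against placebo (all 0.00). None of the 14 passed in calcitriol against placebo by limma, 0 also at an unadjusted p under 0.05, where 0% and 2.58% of all probe sets did.

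**Figure D1:**
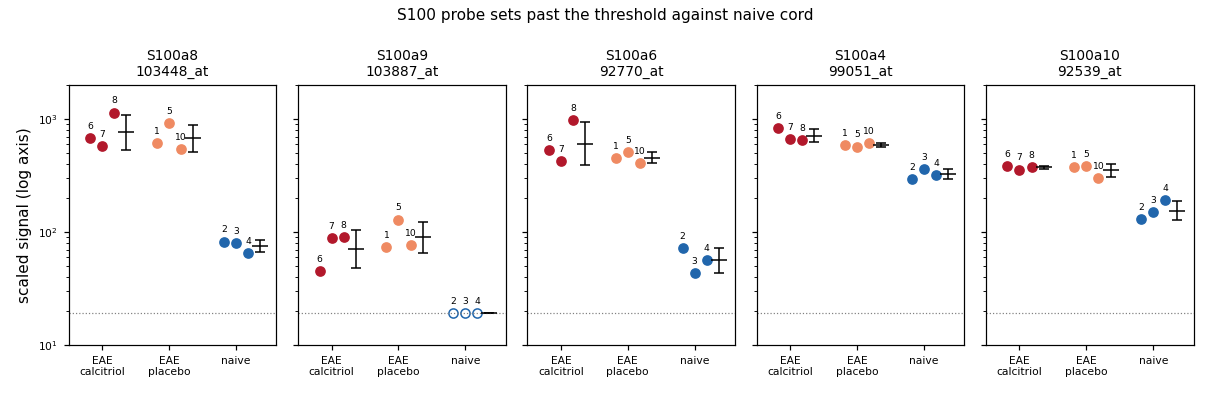
Scaled signal (log axis) of the 5 S100 probe sets that rose in EAE, by group, with points for single arrays numbered by replicate and bars for the mean and SD of log2 signals. Open points are arrays at the floor (dotted line at 19.3); in each panel every calcitriol and placebo array lies above every naive array.

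S100a8 and S100a9 encode the calprotectin subunits. S100a8 had signals of 673, 580 and 1142 in calcitriol-treated EAE (replicates 6, 7 and 8), 618, 923 and 539 in placebo-treated EAE (replicates 1, 5 and 10) and 82.3, 79.8 and 65.0 in naive cord (replicates 2, 3 and 4). The EAE groups did not overlap naive, and within them calcitriol replicate 8 and placebo replicate 5 stood highest. S100a8 rose 8.97-fold in placebo-treated EAE against naive (3.16 ± 0.28 log2, SE, n = 3 per group, limma adjusted p = 0.00121) and 10.1-fold in calcitriol-treated EAE against naive (3.34 ± 0.28 log2, SE, adjusted p = 0.000867). S100a9 had 45.5, 88.0 and 90.7 in calcitriol-treated EAE, 73.3, 129 and 77.1 in placebo-treated EAE and -7.43, 7.73 and -0.115 in naive cord. All naive arrays were thus at the floor, and every EAE array was above it. The naive SD was therefore 0, and naive cord added no spread of its own to the SE and p of S100a9. S100a9 rose at least 4.67-fold in placebo-treated EAE (2.22 ± 0.36 log2 against the floor, SE, limma adjusted p = 0.0247) and at least 3.70-fold in calcitriol-treated EAE (1.89 ± 0.36 log2, SE, limma adjusted p = 0.0282). The S100a9 calls depended on the floor and on single arrays: they were lost with a floor at 20% of the mean (adjusted p = 0.155 for placebo and 0.251 for calcitriol against naive). The placebo call was also lost without naive replicate 3 or 4 or any 1 placebo array, and the calcitriol call without naive replicate 3 or 4, calcitriol replicate 7 or 8 or placebo replicate 1, and with only the 2 groups fitted (adjusted p = 0.0766). The adjusted p over 18 alternatives was 0.00242 to 0.155 for placebo and 0.00292 to 0.251 for calcitriol against naive.

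S100a6, or calcyclin, is a cytoplasmic S100 protein of fibroblasts, epithelia and some glia that binds the ubiquitin ligase adaptor Cacybp and annexins. S100a6 had 530, 423 and 981 in calcitriol-treated EAE, 448, 511 and 411 in placebo-treated EAE and 72.0, 43.7 and 56.4 in naive cord. The groups with EAE again did not overlap naive, and calcitriol replicate 8 was again the highest array. S100a6 rose 8.10-fold in placebo-treated EAE (3.02 ± 0.30 log2, SE, limma adjusted p = 0.00311) and 10.7-fold in calcitriol-treated EAE (3.43 ± 0.30 log2, SE, adjusted p = 0.0013), both against naive. S100a6 and S100a8 passed in both comparisons under all 18 alternatives, each array left out in turn among them.

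S100a4, which binds non-muscle myosin and is made by leukocytes and fibroblasts, rose less. S100a4 had 831, 661 and 654 in calcitriol-treated EAE, 585, 570 and 612 in placebo-treated EAE and 295, 364 and 320 in naive cord. The groups formed 3 steps without overlap, calcitriol above placebo above naive. The rise against naive was 1.81-fold with placebo (0.86 ± 0.14 log2, SE, limma adjusted p = 0.0262) and 2.19-fold with calcitriol (1.13 ± 0.14 log2, SE, adjusted p = 0.00441). S100a10, or p11, lacks calcium binding and holds annexin A2 (Anxa2) at the membrane in a stable complex. The plain S100a10 probe set had 384, 358 and 379 in calcitriol-treated EAE, 377, 383 and 302 in placebo-treated EAE and 130, 150 and 191 in naive cord. It rose 2.27-fold with placebo (1.19 ± 0.17 log2, SE, limma adjusted p = 0.0179) and 2.41-fold with calcitriol (1.27 ± 0.17 log2, SE, adjusted p = 0.00625), again without overlap. With calcitriol, both calls against naive held under all 18 alternatives. With placebo, the S100a4 call was lost with only the 2 groups fitted (adjusted p = 0.0619, 0.00485 to 0.129 over the alternatives) and without naive replicate 3 or 4 or any 1 placebo array, and the S100a10 call with only the 2 groups fitted (0.0778, 0.000643 to 0.106) and without naive replicate 3 or placebo replicate 1 or 5.

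The second S100a10 probe set, with the suffix _r_at that marks relaxed probe selection, did not follow the first. It had 534, 466 and 553 in calcitriol-treated EAE, 587, 609 and 525 in placebo-treated EAE and 369, 691 and 748 in naive cord, with overlap of all groups. Its differences were -0.01 ± 0.24 log2 (SE) for placebo and -0.16 ± 0.24 log2 (SE) for calcitriol against naive, where the plain probe set rose by 1.19 and 1.27. The placebo value took a positive sign, 0.12 log2 on values as deposited and 0.0084 log2 with quantile normalization.

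**Figure D2:**
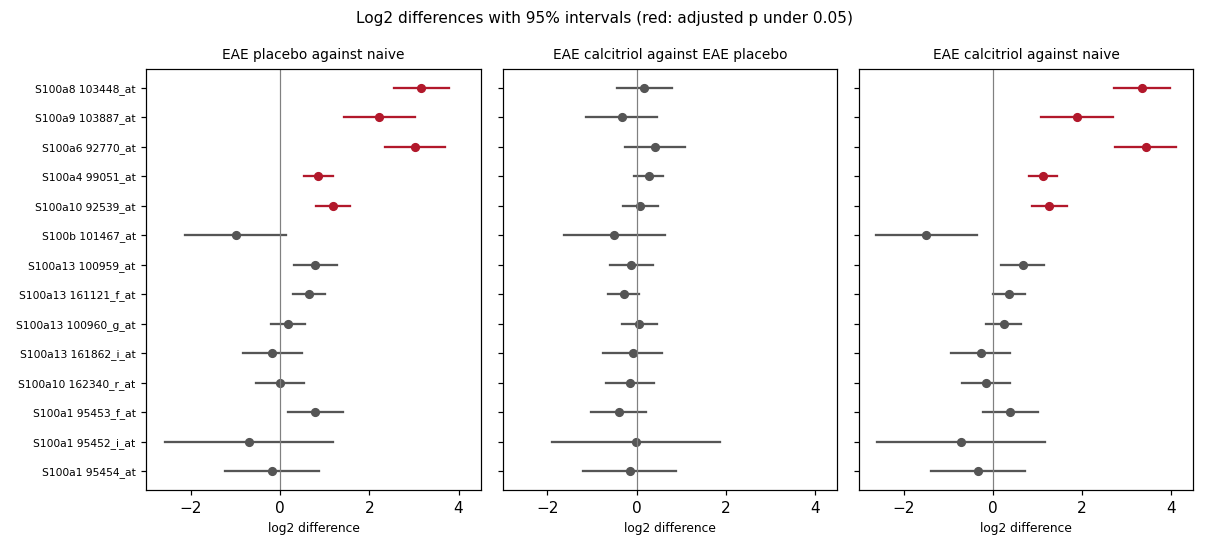
Log2 differences (x axis) of the 14 S100 probe sets (y axis) in 3 comparisons, with points for the fitted difference and lines for its 95% interval, red where the limma adjusted p was under 0.05. The 5 red probe sets stand to the right of 0 in both comparisons with naive, and every interval of calcitriol against placebo covers 0.

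Calcitriol was compared with placebo to see what the hormone changed in cords with EAE. The 14 differences ran from -0.49 to 0.41 log2, 5 positive and 9 negative, with 1 probe set higher and 13 overlapping. The 1 without overlap was S100a4, where 9.99% of all probe sets had no overlap in either direction, 4.82% higher and 5.17% lower. S100a4 was 1.21-fold higher with calcitriol (95% interval 0.968 to 1.504, limma adjusted p = 1, unadjusted p = 0.0859). S100a6 stood at 1.33-fold (0.830 to 2.12), S100a8 at 1.13-fold (0.736 to 1.74), the plain S100a10 set at 1.06-fold (0.810 to 1.39) and S100a9 at 0.792-fold (0.455 to 1.38), each with overlapping groups and an adjusted p of 1. Without calcitriol replicate 8 the sign of S100a8 turned, to -0.11 log2.

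S100a13, S100b and S100a1 did not pass in any comparison. S100a13, which takes part in the release of Fgf1 and Il1a from stressed cells, had 4 probe sets. The plain one had 368, 489 and 491 in calcitriol-treated EAE, 478, 458 and 515 in placebo-treated EAE and 368, 292 and 204 in naive cord. Placebo arrays lay above naive without overlap, and calcitriol replicate 6 met naive replicate 2. Its differences were 0.79 ± 0.22 log2 (SE, limma adjusted p = 0.198) for placebo and 0.67 ± 0.22 log2 (SE, adjusted p = 0.208) for calcitriol against naive. Without naive replicate 2 it passed in both, at 0.98 log2 (adjusted p = 0.0373, 0.0138 to 0.466 over the alternatives) and 0.87 log2 (0.0369, 0.0131 to 0.526). The S100a13 set with suffix _f_at, whose probes may meet related sequences, stood at 0.65 ± 0.16 log2 (SE, adjusted p = 0.13) and 0.36 ± 0.16 log2 (SE, adjusted p = 0.394) with no overlap, and the _g_at set at 0.18 and 0.24 log2 with overlap. The dim _i_at set, at 66.4 to 112 in calcitriol-treated EAE, 79.6 to 115 in placebo-treated EAE and 76.6 to 126 in naive cord, had the opposite sign, -0.18 and -0.27 log2.

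S100b had 138, 287 and 106 in calcitriol-treated EAE, 231, 230 and 222 in placebo-treated EAE and 1069, 324 and 272 in naive cord. Naive replicate 2 stood far above every other array, and naive replicate 4 was below calcitriol replicate 7. The placebo arrays were all lower than naive. S100b stood at -0.999 ± 0.503 log2 (SE, limma adjusted p = 0.612) for placebo and -1.49 ± 0.50 log2 (SE, adjusted p = 0.238) for calcitriol against naive. Without naive replicate 2 these were -0.38 log2 (adjusted p = 0.684, 0.356 to 0.854 over the alternatives) and -0.88 log2 (0.231, 0.122 to 0.588). Against placebo, calcitriol arrays stood at 0.71-fold with a wide interval, 0.325 to 1.55.

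S100a1, best known from heart and skeletal muscle where it binds ryanodine receptors, had 3 probe sets that differed. The _f_at set had 98.4, 132 and 151 in calcitriol-treated EAE, 165, 146 and 186 in placebo-treated EAE and 68.6, 134 and 94.3 in naive cord. Placebo arrays lay above naive, calcitriol arrays overlapped both, and the differences from naive were 0.79 ± 0.28 log2 (SE, limma adjusted p = 0.355) and 0.39 ± 0.28 log2 (SE, adjusted p = 0.645). The _i_at set had an exact 0 on calcitriol replicate 6, where a failed estimate and a low level cannot be told apart, and ran from 12.5 to 97.1 in placebo-treated EAE and from 38.7 to 223 in naive cord. The plain set was at the floor on 1 calcitriol, 1 placebo and 2 naive arrays, with 16.7 to 28.0 in calcitriol-treated EAE, 0 to 33.4 in placebo-treated EAE and -5.95 to 57.7 in naive cord. The _i_at and plain sets overlapped in all comparisons.

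**Figure D3:**
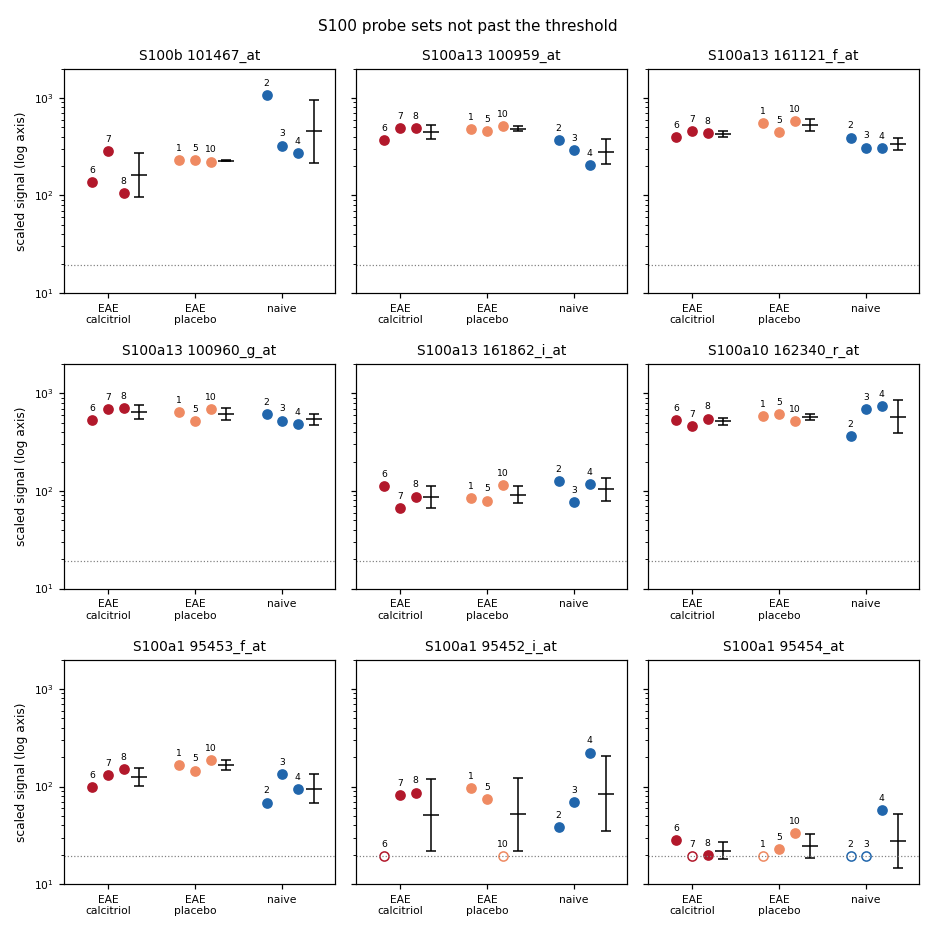
Scaled signal (log axis) of the 9 S100 probe sets that did not pass, by group, drawn as points per array numbered by replicate with the mean and SD of log2 signals, open points at the floor (dotted line, 19.3). For S100b naive replicate 2 reaches 1069 while the other naive arrays lie at 272 and 324.

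Partners and receptors of the family were read from lists of genes. Of 36 measured binding partners 2 rose and none fell with placebo against naive, and 4 rose and none fell with calcitriol against naive, beside 0.979% and 2.08% of 8170 genes represented by 1 probe set each. Their medians were -0.04 and 0.02 log2, against -0.03 and -0.02 log2 over all genes tested. Ahnak, a giant scaffold protein that binds S100a10 with annexin A2, had 120 to 247 in calcitriol-treated EAE, 147 to 183 in placebo-treated EAE and 35.7 to 41.9 in naive cord. It rose 4.35-fold with placebo (limma adjusted p = 0.0104) and 4.89-fold with calcitriol (adjusted p = 0.00401). Anxa3, a calcium-dependent membrane-binding protein, rose 3.27-fold with placebo (adjusted p = 0.0258) and 3.28-fold with calcitriol (adjusted p = 0.0145). Anxa2 itself, with 744 to 1152 in calcitriol-treated EAE, 651 to 967 in placebo-treated EAE and 475 to 530 in naive cord, passed with calcitriol (1.94-fold, adjusted p = 0.0411) and stood at 1.60-fold with placebo (adjusted p = 0.224). Iqgap1, a cytoskeletal scaffold, rose 3.72-fold with calcitriol (adjusted p = 0.0204) and stood at 2.58-fold with placebo (adjusted p = 0.133), and its 2 other probe sets had the same sign in each. In calcitriol against placebo none of the 36 passed, beside 0% of all 8170 genes, so this count does not tell whether the 2 treatments differ for these genes. At an unadjusted limma p under 0.05, 1 of the 36 passed, beside 2.58% of all probe sets.

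Of 11 measured receptor and signalling genes, Tlr4 not being among them, none passed with placebo against naive and 1 rose with calcitriol against naive. The shares of all genes were the same 0.979% and 2.08%. At an unadjusted limma p under 0.05, 2 passed with placebo against naive, beside 9.33% of all probe sets. The gene that rose was Cd14, the co-receptor of Tlr4, at 839 to 963 in calcitriol-treated EAE and 408 to 470 in naive cord (2.06-fold, limma adjusted p = 0.024), with 543 to 927 in placebo-treated EAE (1.70-fold, adjusted p = 0.141). Ager, the receptor RAGE, had 519 to 694 in calcitriol-treated EAE, 573 to 683 in placebo-treated EAE and 699 to 846 in naive cord. It stood at -0.28 ± 0.16 log2 (SE, adjusted p = 0.673) for placebo and -0.26 ± 0.16 log2 (SE, adjusted p = 0.584) for calcitriol against naive. Of 37 other EF-hand genes 1 rose in each comparison with naive (0.979% and 2.08% of all genes), Lcp1, the actin bundler of leukocytes (2.63-fold with placebo, limma adjusted p = 0.00895, and 2.95-fold with calcitriol, adjusted p = 0.00312), though its 1 other probe set had the opposite sign with placebo. The medians of this list were 0.04 and -0.12 log2. The 8 probe sets of S100a3, S100a5, S100a14, S100a16 and S100g did not pass in any comparison.

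Markers of myeloid cells and T cells were read beside these values, against 0.979% of all genes passing with placebo and 2.08% with calcitriol. The summed signal of 15 neutrophil markers was 5040 to 7402 in calcitriol-treated EAE, 5179 to 6628 in placebo-treated EAE and 3303 to 3653 in naive cord. Of the 15, 2 rose with placebo (Lcn2 and Chil3) and 3 with calcitriol (also Itgam), all of which other cells make too. Lcn2, which is in the sum, had 1116 to 1709 in calcitriol-treated EAE, 1041 to 1658 in placebo-treated EAE and 233 to 429 in naive cord. Chil3, also in the sum, had 796 to 2449, 292 to 1671 and 64.1 to 111 in the same groups. The sum without Lcn2 and Chil3 was not compared. The sign was positive for 13 of 15 with placebo and 11 of 15 with calcitriol. Ltf, a protein of neutrophil granules, had 209 to 248 in calcitriol-treated EAE, 281 to 294 in placebo-treated EAE and 167 to 189 in naive cord, with no overlap with naive (limma adjusted p = 0.287 for calcitriol and 0.0584 for placebo against naive). Cxcr2, a chemokine receptor of neutrophils, had 148 to 215, 152 to 176 and 89.3 to 124 in the same groups (adjusted p = 0.192 and 0.352). Other markers on the list, also above the floor on every array, overlapped naive. Csf3r had 1125 to 1258, 1163 to 1193 and 1136 to 1337 in the same groups. Camp had 506 to 598, 485 to 763 and 470 to 609, and Elane 226 to 277, 255 to 338 and 187 to 346. Mmp9 and Mpo overlapped naive too. Ly6g, a surface marker of mouse neutrophils, had 14.2 to 70.6 in calcitriol-treated EAE, 27.7 to 38.7 in placebo-treated EAE and 17.5 to 53.5 in naive cord, and Mmp8, a neutrophil collagenase, was at the floor on 1 calcitriol, 2 placebo and 2 naive arrays. The summed signal of 24 monocyte, macrophage and microglia markers was 9297 to 15252, 7664 to 9860 and 3559 to 3749 in the same groups, and 7 of them rose with placebo and 11 with calcitriol. Calcitriol replicate 8 and placebo replicate 5, the arrays with the highest S100a8 and S100a6 of their groups, also had the highest sum of both lists in their groups. In calcitriol against placebo 22 of the 24 macrophage markers had a positive sign (median 0.33 log2, all genes -0.0031) and none passed (5 at an unadjusted p under 0.05, as did 2.58% of all probe sets). The summed signal of 13 T cell markers was 1946 to 2214 in calcitriol-treated EAE, 1826 to 1976 in placebo-treated EAE and 1989 to 2391 in naive cord. Of these 13 none passed, and 10 had a negative sign in each comparison with naive (medians -0.13 log2 with calcitriol and -0.21 log2 with placebo, 1 and 3 at an unadjusted p under 0.05). The part of these cells in the S100 values was not tested.

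**Figure D4:**
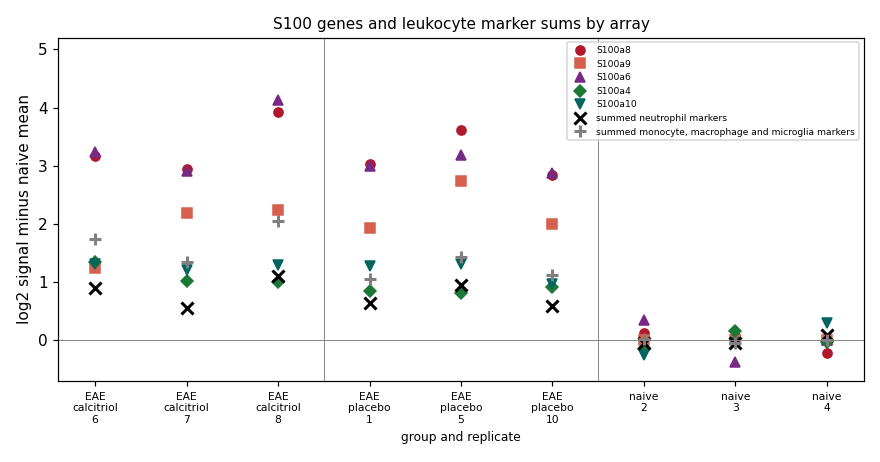
Log2 signal minus the naive mean (y axis) of the 5 S100 genes that rose and of the summed neutrophil and macrophage markers, for each array (x axis, group and replicate). All 5 genes lie above the naive mean on every EAE array, S100a9 by a lower bound since its naive arrays are at the floor, and both marker sums are highest within their groups on calcitriol replicate 8 and placebo replicate 5. The neutrophil sum includes Lcn2 and Chil3, which other cells make too, and the macrophage sum includes the bright Arg1 and Ctss.

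Markers of other cells were read against the same 0.979% of all genes passing with placebo and 2.08% with calcitriol. Of 16 fibroblast and meninges markers 1 rose in each comparison with naive, Fn1. Their sum was 5050 to 6026 in calcitriol-treated EAE, 5864 to 6146 in placebo-treated EAE and 4921 to 5022 in naive cord, both EAE groups above naive without overlap. Fn1, which is in this sum, had 1092 to 1917, 774 to 1249 and 82.6 to 115 in the same groups. The sum without Fn1 was not compared. Of 13 astrocyte markers 1 rose, Serpina3n, with sums of 11886 to 16663, 16417 to 18696 and 8537 to 13686 in the same groups, placebo above naive without overlap. Serpina3n, which is in these sums, had 3295 to 4842, 4266 to 7184 and 139 to 151 in the same groups. Sums without Serpina3n were not compared. The shares of all probe sets that fell against naive were 0.0493% with placebo and 0.32% with calcitriol. Of 10 oligodendrocyte markers none passed with placebo and 2 fell with calcitriol, Mog and Car2, with sums of 5830 to 8311, 7840 to 8255 and 7990 to 10053. Of 16 neuron markers 1 fell in each, Cplx1, and 12 had a negative sign in each, with sums of 6887 to 7646, 7290 to 9706 and 10620 to 20472, both EAE groups below naive without overlap. Endothelium (10) and Schwann cell (4) markers had 0 past the test in each comparison. Naive replicate 2, the array with the highest S100b, also had the highest naive sum of astrocyte, oligodendrocyte, neuron and Schwann cell markers. It did not have the highest naive sum of fibroblast or endothelium markers. The part of these cells in the S100 values was not tested either. Gfap, Glul, Gja1, Mbp, Nefl, Stmn2 and Gad1 were each at the floor on 1 naive array, listed there at 0, and Syt1 on 1 calcitriol array. Such zeros enter the naive sums as the floor.

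The genes nearest to each member in pattern were found from the root mean square difference of log2 signals over the 9 arrays after centring. They were sought among 7292 other genes with a plain probe set above the floor on most arrays. For S100a8 the nearest gene was S100a6 (0.24 log2, where S100a8 itself varied by 1.57 around its mean), and for S100a6 it was S100a8. Fn1 (0.31) and Cebpb (0.36) came next for S100a8, Gbp7 and Ctss (0.36 each) for S100a6, and Apod (0.32), Ier3 (0.33) and Ahnak (0.36) for S100a9. The nearest for both S100a4 (0.16) and S100a10 (0.17) was Tpm4, followed by Slc11a1 and Itga5 for S100a4 and Gadd45g and Rplp0 for S100a10. Those of S100a13 were Fam120a, Polr2l and Capza1, those of S100b were Rtn1, Qdpr and Rcn2, and those of the plain S100a1 set were Tnnc1, Asrgl1 and Rpf2 (among 7293). The plain S100a1 set was at the floor on 1 calcitriol, 1 placebo and 2 naive arrays, so its matches rest on dim values. The values share the 9 arrays and their group means, and no test was made.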

How the data were processed

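Spinal cord RNA was hybridised to 9 one-colour oligonucleotide arrays. The deposited columns hold linear intensity, 1 value per probe set, and the sources used here do not state how the authors summarised or scaled them. From 1.26% (lowest array) to 3.53% (highest array) were negative, and some were exactly 0. Per the labels, no replicate number occurs in 2 groups. They do not say whether replicates were separate mice, so each p-value reflects only variation among these samples, possibly technical.

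Signals were scaled to a common mean leaving out the 66 control probe sets and the lowest and highest 2%, raised to the floor and taken to log2. Of the others, 12177 above the floor on at least 3 arrays were tested in 1 fit over 9 arrays (limma 3.58.1 on R 4.3.3, empirical Bayes with an intensity trend, 6 residual degrees of freedom), checked on simulated data. A probe set passed at 0.05 after Benjamini-Hochberg adjustment. Intervals are 95%. A single gene symbol was annotated for 10855 probe sets, several for 396 and none for 1237. For lists, each gene had 1 probe set, a plain one if any, and the brightest of these. Named are all member probe sets, the list genes past the threshold (up to 4 by p) and the 3 genes nearest each member. Ager, Bsg, Cd36, Ltf, Cxcr2, Csf3r, Camp, Elane, Mmp9, Mpo, Ly6g and Mmp8 were named after their values were seen. So were Arg1, Ctss, Cx3cr1 and the markers listed at the floor. Members and lists were chosen with earlier results of these data known. Promoters are RefSeq sequences (GRCm38.p6), and 7 of 8 members matched. Plots and summaries used Python 3.11.15, pandas 2.3.3 and matplotlib 3.10.9.

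The number of arrays limits precision. Alternatives were values as deposited, quantile normalization, floors at 5% and 20%, no filter, a filter on the mean, array weights, only the 2 groups compared, exact zeros as missing, and each array left out.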

Additional observations from a re-analysis of the deposited data

How the results depend on the processing

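No paired analysis was possible because the groups share no replicate numbers. The number of S100 probe sets called was 0 in calcitriol against placebo under all 18 alternatives, 4 to 7 in calcitriol against naive and 2 to 7 in placebo against naive. In the last it was 3 with only the 2 groups compared, where S100a8, S100a9 and S100a6 passed, and 2 to 7 with 1 array left out (2 without naive replicate 3, placebo replicate 1 or placebo replicate 5, and 3 without naive replicate 4 or placebo replicate 10). With array weights it was 7 against naive in both comparisons, with 2 S100a13 sets added, and these weights rest the naive group mostly on replicate 3 (4.38, against 0.26 and 0.41). Signs turned only for values that did not pass, and the cause was not tested except where the floor or an exact 0 enters. The S100a1 _i_at set in calcitriol against placebo went to 0.25 with array weights and 0.70 with exact zeros as missing. The plain S100a1 set went to 0.16 (placebo against naive), 0.26 (calcitriol against naive) and 0.11 (calcitriol against placebo) with the floor at 5%, and to 0.20 with array weights (placebo against naive). The S100a10 _r_at set in placebo against naive went to 0.12 on values as deposited and 0.0084 with quantile normalization, and the S100a13 _i_at set to 0.16 with array weights. The beta-actin difference of calcitriol and placebo went to -0.23 with quantile normalization.

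With 1 array left out, the log2 ranges that crossed 0 were, in calcitriol against placebo, -0.73 to 0.70 for the S100a1 _i_at set, -0.33 to 0.0656 for the plain S100a1 set, -0.0254 to 0.15 for the plain S100a10 set, -0.19 to 0.0205 for the plain S100a13 set, -0.0529 to 0.20 for the S100a13 _g_at set, -0.27 to 0.11 for the S100a13 _i_at set and -0.11 to 0.40 for S100a8. In placebo against naive they were -1.26 to 0.0141 for the S100a1 _i_at set, -0.44 to 0.35 for the plain S100a1 set and -0.33 to 0.18 for the S100a10 _r_at set, and in calcitriol against naive -0.60 to 0.19 for the plain S100a1 set and -0.48 to 0.0324 for the S100a10 _r_at set. The beta-actin difference of calcitriol and placebo ran from -0.0209 to 0.32. Of 750 alternative values of the 42 S100 differences, 693 kept direction and side of the threshold, 23 lost a call, 7 gained one and 27 turned in sign.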
